A study of Mus musculus with 3 samples.

Results

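The genes described here carry out fatty acid synthesis and oxidation: 41 mouse genes chosen by their known role, of 19747 genes with a probe. Earlier results of these data were known when they were chosen. They comprise 6 genes of synthesis, 8 of elongation and desaturation, 6 of fatty acid activation, 3 of the carnitine shuttle, 13 of beta-oxidation, 3 of electron transfer from it, and 2 ketone body dehydrogenases. Probes were assigned to genes by RefSeq accession, and a gene with several probes was represented by its brightest. All 41 had a probe, 38 were measured on all 3 arrays, 1 (Scd1) was measured on 1 array, and 2 (Me1 and Fads2) were measured on none. Measured means a spot well above background in both channels of an array.

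Each of 3 cultures was set against naive cells on 1 Agilent 2-colour array, with RNA of the culture in Cy5 and RNA of naive cells in Cy3. All started from CD4 T cells of C57BL/6 spleens (mice aged 6 to 8 weeks) that had been sorted as naive on magnetic columns and then received plate-bound anti-CD3e and soluble anti-CD28, 10 µg/ml of each, over 3 days. Th2 cultures held IL-4 at 5 ng/ml, IL-2 at 1 ng/ml and 2 µg/ml anti-IFN-γ. Th9 cultures held human TGF-β1 at 2 ng/ml, IL-4 at 1 ng/ml, IL-2 at 0.2 ng/ml and 5 µg/ml anti-IFN-γ. Cultures labelled Treg or iTreg held human TGF-β1 at 5 ng/ml, IL-2 at 0.4 ng/ml, and 5 µg/ml each of anti-IFN-γ and anti-IL-4. The naive cells were the unstimulated starting population. A culture stimulated without polarising agents was not analysed here, so stimulation and medium cannot be told apart in a ratio over naive, and between media the agents change together. The labels do not say how many mice were pooled, or whether the naive RNA on the 3 arrays was 1 extract. With 1 array a culture there was no replicate check, and a difference was called only by its size, 2-fold (log2 1) or more. Rose and fell are used below for values past that size.

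Fatty acid synthesis builds acyl chains in the cytosol from acetyl-CoA and malonyl-CoA. Elongases and desaturases of the endoplasmic reticulum then lengthen the chains and place double bonds in them. For oxidation, a fatty acid is joined to coenzyme A, carried into mitochondria as an acylcarnitine, and shortened by rounds of dehydrogenation, hydration and thiolysis, with electrons passed to ubiquinone through the electron transfer flavoprotein. Activated T cells are known for membrane lipid synthesis during growth, and regulatory and memory T cells have been widely studied for their use of fatty acid oxidation.

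Each array had 43020 gene spots. In the culture channel 48.9% to 51.0% of them exceeded background clearly, and in the naive channel 53.0% to 54.1%. None was saturated. Over the 38 members measured on all 3 arrays, the naive level varied between arrays with a median SD of 0.035 log2 units, and at most 0.23 (Bdh2). The scanner software gives an error for its own log ratio, which had a median of 0.22 log2 units for these members on each array. This error for 1 array follows each ± below. It was not computed for the loess ratio printed before it. Cell labels were checked against defining markers as log2 ratios over naive. Il4, the Th2 cytokine, stood at 5.08 in Th2 and 1.04 in Th9 cultures and was at background in iTreg culture. Il9 stood at 6.52 in Th9 culture, and Foxp3, the regulatory T cell factor, at -0.68 in Th2, 1.28 in Th9 and 3.49 in iTreg cultures. These markers were not confined to 1 culture each. Of 6 listed culture markers all 6, Il9 included, were above background in Th2 and in Th9 cultures, and 4 in iTreg culture. Cd4 stood at -0.62, -0.47 and -0.35 in the order Th2, Th9, iTreg. Of 7 T cell genes, all measured, 4 fell in Th2, 6 in Th9 and 0 in iTreg cultures with loess, and Cd3e was the lowest in Th2 (-1.94) and Th9 (-1.91). Their summed normalised intensity was 195719, 153398 and 268304 in Th2, Th9 and iTreg cultures, against 411055, 401528 and 354847 in naive cells. Marker lists of other cells moved too. The summed normalised intensity of 8 NK and CD8 T cell genes was 11690, 4995 and 4428 in Th2, Th9 and iTreg cultures, against 73791, 70099 and 68248 in naive cells, with Cd8a at background throughout. Over 9 myeloid genes the sums were 34707, 33058 and 59434 in the cultures, against 73703, 72557 and 64046 in naive cells. Of 8 B cell genes 6 were at background in every channel, among them Cd79a, Ms4a1 and Pax5, and the sums were 2887, 2824 and 2635 in the cultures, against 1163, 1146 and 1173 in naive cells. For 5 red cell and platelet genes they were 534, 477 and 488 in the cultures, against 1424, 1520 and 1576 in naive cells, with Alas2 and Ppbp among those at background. The part of these shifts in the ratios below was not tested. In such bulk RNA a change in the share of a cell type cannot be told apart from a change in RNA per cell.

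Against naive cells, the genes that rose were mostly a subset of desaturases, elongases, acyl-CoA synthetases and mitochondrial beta-oxidation enzymes. The enzymes that make palmitate from acetyl-CoA did not pass 2-fold in the main processing. In some alternatives Fasn and Acacb passed it downwards and Acaca upwards. For Acacb these included plain background subtraction followed by loess. In Th2 culture 11 of 38 measured members (28.9%) rose, against 14.8% of all measured genes, and 4 (10.5%) fell, against 14.5%. In Th9 culture 15 of 39 (38.5%) rose, against 15.5% of all genes, and 2 (5.13%) fell, against 15.6%. In iTreg culture 11 of 38 (28.9%) rose, against 10.2% of all genes, and 1 (2.63%) fell, against 8.15%. The median log2 ratio over the measured members was 0.35 in Th2, 0.47 in Th9 and 0.52 in iTreg cultures, against -0.02, -0.01 and -0.02 over all genes. These 3 comparisons share their naive cells and are not independent. The members were chosen with earlier results of these data known, so no test of the shares is given. Counts by step below are to be read beside the same shares of all genes. The dot plot of log2 ratios over naive shows the members by step.

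**Figure D1:**
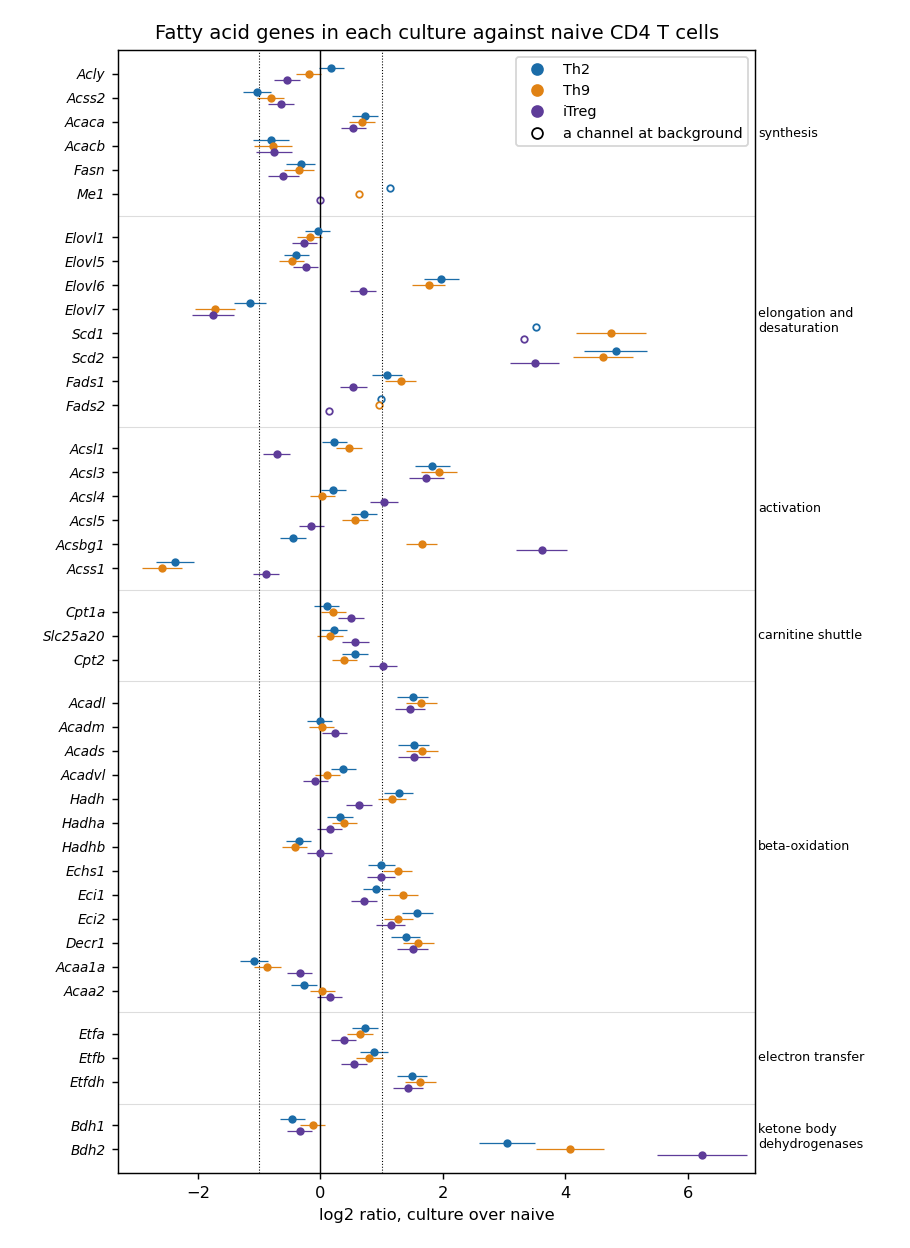
Log2 ratio over naive (x axis) of each of the 41 genes, grouped by step, in Th2, Th9 and iTreg cultures, 1 array each; bars are the scanner software's error, open points have a channel at background and dotted lines mark 2-fold. Elongation and desaturation holds both high and low ratios (Scd2 at 4.82, Elovl7 at -1.16 in Th2), while most beta-oxidation genes lie above 0.

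The synthesis genes lay near or below their naive level. Among 5 measured genes 1 fell in Th2 culture and none passed 2-fold in Th9 or iTreg cultures, with medians of -0.32, -0.36 and -0.61. Fasn, the synthase that makes palmitate, gave a median spot signal before normalisation of 164 in Th2, 154 in Th9 and 135 in iTreg cultures, against 183, 182 and 192 in naive cells on the same arrays. Each culture lay a little below its naive channel, with log2 ratios of -0.32 ± 0.24, -0.36 ± 0.25 and -0.61 ± 0.25. The iTreg value passed 2-fold downwards by the scanner software's processed signals (-1.05) and by the authors' series values after median centring here (-1.30). Acaca, the acetyl-CoA carboxylase that makes malonyl-CoA for synthesis, had the highest ratios of the group (0.72, 0.68 and 0.54). Its Th2 value passed 2-fold upwards with median centring (1.09). Acacb, the carboxylase isoform of the mitochondrial surface, stood at -0.81, -0.78 and -0.76. It passed 2-fold downwards by the scanner software's processed signals (-1.56 in Th2, -1.66 in Th9 and -1.62 in iTreg cultures). Plain background subtraction with loess put it at -1.24, -1.19 and -1.31. Acly, which cleaves citrate, stood at 0.18, -0.19 and -0.54. Acss2, which activates acetate, gave signals of 1611.5, 1872.5 and 1978 in Th2, Th9 and iTreg cultures, against 2503, 2483 and 2555 in naive cells. It was lower on each array, at log2 -1.04 ± 0.23, -0.81 ± 0.22 and -0.64 ± 0.21, and only the Th2 value passed 2-fold (-0.60 with median centring, -0.78 as the mean of its 2 probes). Me1, a malic enzyme that supplies NADPH, was at background in naive cells and was at least log2 0.83 higher in Th2 culture, the only culture where it was above background.

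Elongation and desaturation held genes far above and genes below their naive level. Scd2, a stearoyl-CoA desaturase that makes monounsaturated fatty acids such as oleate, gave signals of 76452 in Th2, 64175 in Th9 and 26268.5 in iTreg cultures, against 1474, 1484 and 1696 in naive cells. Every culture was far above its naive channel, 28.3-fold in Th2, 24.5-fold in Th9 and 11.3-fold in iTreg (log2 4.82 ± 0.51, 4.61 ± 0.50 and 3.50 ± 0.39). Its paralogue Scd1 gave signals of 1264, 4342 and 914 in Th2, Th9 and iTreg cultures, against 74, 123 and 60.5 in naive cells. The naive spot was above background on the Th9 array alone. There Scd1 was 4.74 ± 0.57 higher on the log2 scale. In Th2 culture it stood at 3.53 ± 0.58 over a naive spot at background, and in iTreg culture it was at least 3.27 higher. Cross-hybridisation between the desaturase paralogues was not tested.

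Elovl6, which elongates palmitate to stearate, gave signals of 1990, 1610 and 701 in Th2, Th9 and iTreg cultures, against 398, 385 and 376 in naive cells. It rose 3.93-fold in Th2 and 3.41-fold in Th9 culture and did not pass 2-fold in iTreg culture (log2 1.97 ± 0.28, 1.77 ± 0.27 and 0.69 ± 0.22). Elovl7, another elongase of long acyl chains, went the other way, with signals of 187, 126 and 105 in the cultures, against 382.5, 385 and 383 in naive cells. Its log2 ratios were -1.16 ± 0.26, -1.73 ± 0.33 and -1.76 ± 0.35, all past 2-fold (-0.98 in Th2 with median centring). Elovl1 and Elovl5, which elongate very long saturated and polyunsaturated chains, lay between -0.47 and -0.04 in log2 ratio. A second, dimmer Elovl1 probe lay above naive, at 0.63, 0.32 and 0.04. Fads1, a desaturase of polyunsaturated fatty acids, rose in Th2 (1.09 ± 0.25) and Th9 (1.31 ± 0.25) cultures and stood at 0.54 ± 0.22 in iTreg culture. Fads2, its partner in the same pathway, was at background in naive cells and was at least 0.85 higher in Th2 and 0.70 higher in Th9 culture, and at background in both channels of the iTreg array. Over the group 3 of 6 measured genes rose in Th2, 4 of 7 in Th9 and 1 of 6 in iTreg cultures, and 1 (Elovl7) fell in each.

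**Figure D2:**
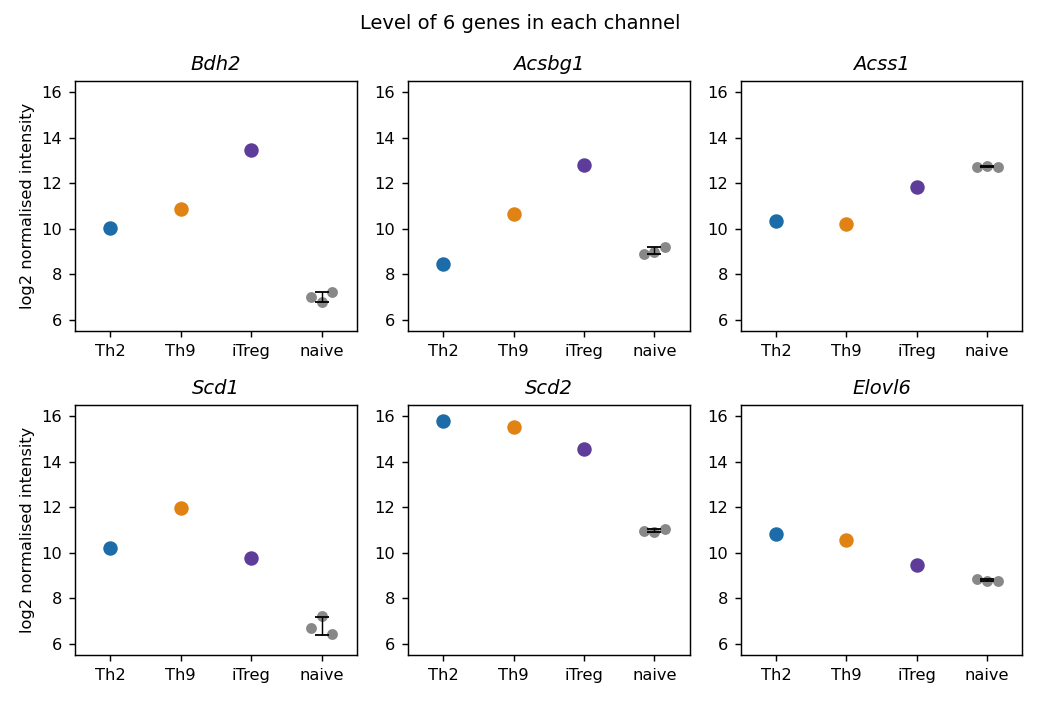
Normalised log2 intensity of 6 members in Th2, Th9 and iTreg cultures (1 array each) and, at the right, in naive cells on the 3 arrays, where the bar is the mean ± SD over the 3 naive channels. Bdh2 and Acsbg1 stand highest in iTreg culture, and Scd2 and Elovl6 stand lower there than in Th2 and Th9 cultures.

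Among activation genes, Acsbg1 differed the most between the media. Acsbg1, an acyl-CoA synthetase of the bubblegum family, gave signals of 372 in Th2, 1758 in Th9 and 7608.5 in iTreg cultures, against 444, 454 and 504 in naive cells. Th2 culture lay below its naive channel and the other cultures above theirs, with log2 ratios of -0.44 ± 0.22 in Th2, 1.65 ± 0.26 in Th9 and 3.61 ± 0.42 in iTreg, the last a 12.2-fold difference. Acsl3, a long-chain acyl-CoA synthetase of the endoplasmic reticulum and lipid droplets, gave 986, 1035 and 762.5 in the cultures, against 222, 224 and 188 in naive cells. It rose by a like amount in each, 3.55-fold in Th2, 3.82-fold in Th9 and 3.32-fold in iTreg (log2 1.83 ± 0.29, 1.93 ± 0.30 and 1.73 ± 0.29). Acsl4, which prefers arachidonate, gave 4064, 3588 and 6035 in the cultures, against 2487, 2523 and 2302 in naive cells, and passed 2-fold in iTreg culture alone (0.21 ± 0.20, 0.03 ± 0.20 and 1.04 ± 0.23). That iTreg value lies at the size limit. It fell short at 0.84 in the authors' series values, median-centred here, and at 0.96 against the mean of the 3 naive channels. Acsl1 and Acsl5, the synthetases that feed fatty acids to lipid storage and oxidation, did not pass 2-fold over naive (Acsl1 at 0.22, 0.47 and -0.71, Acsl5 at 0.71, 0.57 and -0.15).

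Acss1, the mitochondrial acetate-activating enzyme, gave signals of 1565 in Th2, 1387.5 in Th9 and 3976 in iTreg cultures, against 5826.5, 6101 and 5671 in naive cells. All 3 cultures lay below naive cells, and Th2 and Th9 passed 2-fold (log2 -2.37 ± 0.30, -2.59 ± 0.32 and -0.89 ± 0.22). Of 6 activation genes 1 rose and 1 fell in Th2, 2 rose and 1 fell in Th9, and 3 rose in iTreg cultures, with medians of 0.22, 0.52 and 0.45.

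The carnitine shuttle showed small ratios. Cpt1a, the acylcarnitine-forming enzyme that malonyl-CoA inhibits, stood at 0.10 ± 0.20 in Th2, 0.21 ± 0.21 in Th9 and 0.50 ± 0.21 in iTreg cultures. Slc25a20, the acylcarnitine carrier of the inner membrane, stood at 0.22, 0.16 and 0.57. Cpt2, which returns the acyl group to coenzyme A in the matrix, gave signals of 1423, 1283 and 1821.5 in the cultures, against 767, 795 and 760 in naive cells. Its log2 ratios were 0.56 ± 0.21, 0.39 ± 0.21 and 1.02 ± 0.22, and the iTreg value fell short of 2-fold in 5 alternatives, the lowest 0.60 as the mean of its probes.

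Beta-oxidation and electron transfer held a group of enzymes that were higher in every culture and close in size between them. Acads, the short-chain acyl-CoA dehydrogenase, gave signals of 1211, 1357 and 1217 in Th2, Th9 and iTreg cultures, against 338, 353 and 359 in naive cells. Acadl, the long-chain dehydrogenase, gave 2678, 2800 and 2120 in the cultures, against 729.5, 703 and 656 in naive cells. Each culture stood well above naive cells for both, with log2 ratios of 1.52 ± 0.26, 1.66 ± 0.26 and 1.53 ± 0.26 for Acads and of 1.5 ± 0.25, 1.65 ± 0.26 and 1.47 ± 0.25 for Acadl. The medium-chain enzyme Acadm (-0.01, 0.02 and 0.24) and the very-long-chain enzyme Acadvl (0.37, 0.11 and -0.09) did not pass 2-fold.

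Decr1, the dienoyl-CoA reductase needed for polyunsaturated chains, gave signals of 5947, 6837 and 5883.5 in the cultures, against 1602, 1594 and 1647.5 in naive cells. It rose 2.62-fold in Th2, 3.02-fold in Th9 and 2.84-fold in iTreg cultures, while its other probe was at background. Eci1 and Eci2, the enoyl-CoA isomerases that shift double bonds, also lay above naive cells. Eci2 rose in each culture (log2 1.58 ± 0.26, 1.27 ± 0.24 and 1.14 ± 0.23), and Eci1 rose in Th9 (1.35 ± 0.24) and stood at 0.91 ± 0.22 in Th2 and 0.71 ± 0.22 in iTreg cultures. Echs1, the enoyl-CoA hydratase, rose 2.40-fold in Th9 and lay just under the limit in Th2 and iTreg cultures (1.99-fold in each), where plain background subtraction put it above (log2 1.08 in Th2 and 1.09 in iTreg). Hadh, the hydroxyacyl-CoA dehydrogenase, rose in Th2 (1.28 ± 0.24) and Th9 (1.17 ± 0.23) and stood at 0.62 ± 0.21 in iTreg cultures.

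The trifunctional protein, which runs the later steps on long chains, did not pass 2-fold in either subunit (Hadha at 0.32, 0.39 and 0.15, Hadhb at -0.35, -0.42 and -0.01). Neither did the mitochondrial thiolase Acaa2 (-0.27, 0.03 and 0.15). Acaa1a, the peroxisomal thiolase, gave signals of 16760, 21634 and 24268.5 in the cultures, against 17314, 18840.5 and 18660.5 in naive cells. After loess its log2 ratios were -1.09 ± 0.22, -0.87 ± 0.22 and -0.34 ± 0.21. The Th2 value passed 2-fold downwards with loess and stood at -0.01 with median centring, so that it depends on the scaling. Cross-hybridisation of its probe with the close paralogue Acaa1b was not tested.

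Etfdh, which hands the electrons to ubiquinone, gave signals of 6361, 6777 and 5282 in the cultures, against 1585.5, 1553 and 1573 in naive cells. It rose in each, 2.81-fold in Th2, 3.09-fold in Th9 and 2.69-fold in iTreg (log2 1.49 ± 0.24, 1.63 ± 0.25 and 1.43 ± 0.24). The flavoprotein subunits Etfa (0.72, 0.65 and 0.38) and Etfb (0.87, 0.80 and 0.55) were higher by less than 2-fold. A second, dimmer Etfa probe passed 2-fold in Th2 and Th9 cultures (1.16, 1.00 and 0.44). Taken over the shuttle, beta-oxidation and electron transfer, 6 of 19 genes rose and 1 fell in Th2, 8 rose in Th9 and 6 rose in iTreg cultures. Of all measured genes 14.8% rose and 14.5% fell in Th2, 15.5% rose in Th9 and 10.2% rose in iTreg cultures. The medians of these 19 were 0.72, 0.65 and 0.57, while median centring instead of loess gave 1.45, 1.14 and 0.43.

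The ketone body dehydrogenases went separate ways. Bdh2, a cytosolic dehydrogenase of the ketone body 3-hydroxybutyrate, gave signals of 1121 in Th2, 1965 in Th9 and 11894 in iTreg cultures, against 102, 88.5 and 126 in naive cells. The naive signals were low and the culture signals were lowest in Th2 and highest in iTreg, at 8.22-fold, 16.8-fold and 75.1-fold over naive (log2 3.04 ± 0.46, 4.07 ± 0.56 and 6.23 ± 0.73). The size of these ratios depends on the processing. Over 9 alternatives they ran from log2 2.92 to 4.32 in Th2, 3.85 to 5.46 in Th9 and 5.96 to 7.24 in iTreg cultures. Bdh2 ranked 204 of 10941 measured genes by ratio in Th2, 66 of 10778 in Th9 and 1 of 11116 in iTreg cultures. Bdh1, the mitochondrial dehydrogenase of the same substrate, stood at -0.46 ± 0.21, -0.13 ± 0.20 and -0.34 ± 0.21 and did not pass 2-fold.

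The 250 bases upstream of the start are shown for Bdh2 and Acsbg1, the members whose levels differed most between the cultures and in the same order, and for Acsl3, which stood at a like ratio in all 3. Sequences are RefSeq's on GRCm38.p6, written 5′ to 3′ on the gene's strand. The windows lie at chr3:135280971-135281220 for Bdh2 (plus strand), at chr9:54661886-54662135 for Acsbg1 (minus strand) and at chr1:78657575-78657824 for Acsl3 (plus strand), and no other annotated gene overlaps them. Capitals mark the NF-Y box CCAAT, or ATTGG where it lies on the other strand.
Bdh2: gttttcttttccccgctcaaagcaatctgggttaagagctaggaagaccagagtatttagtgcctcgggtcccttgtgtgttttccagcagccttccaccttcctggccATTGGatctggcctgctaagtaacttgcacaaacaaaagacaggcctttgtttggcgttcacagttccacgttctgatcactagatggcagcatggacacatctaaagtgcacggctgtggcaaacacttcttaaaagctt
Acsbg1: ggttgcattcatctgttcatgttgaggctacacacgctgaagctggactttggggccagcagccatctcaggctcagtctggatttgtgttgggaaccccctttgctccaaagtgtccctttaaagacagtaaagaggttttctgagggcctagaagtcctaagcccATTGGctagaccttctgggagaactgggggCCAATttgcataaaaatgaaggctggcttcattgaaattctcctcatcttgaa
Acsl3: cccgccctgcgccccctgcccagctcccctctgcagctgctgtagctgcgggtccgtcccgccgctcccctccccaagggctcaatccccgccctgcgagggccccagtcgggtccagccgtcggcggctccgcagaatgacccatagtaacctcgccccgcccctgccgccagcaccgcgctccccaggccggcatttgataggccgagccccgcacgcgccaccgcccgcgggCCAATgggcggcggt
The windows differ in composition, with 48.0% G and C and 5 CpG in Bdh2, 48.4% and 1 CpG in Acsbg1, and 75.6% and 28 CpG in Acsl3. Upstream windows were found for 36 of the 41 genes (40 windows), and 5 motifs were searched on both strands. Scd1, Scd2, Fads1, Decr1 and Acaa2 had no window and were not searched, so the motif counts do not cover them. CCAAT lay in 18 of these 40 windows (45%), against 33.8% of 32851 windows of all genes. The sterol response motif TCACNCCAC lay in 1 (Acsl1, 2.5%), against 1.05% of all. The nuclear receptor half-site AGGTCA lay in 7 (17.5%), against 14% of all, and the E-box CACGTG in 1 (Elovl5, 2.5%), against 6.02% of all. The SMAD palindrome GTCTAGAC lay in none of the 40 windows and in 0.167% of all. No 2 of these motifs share letters in the 3 windows shown, and a match says nothing of binding.

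Between the cultures, few members differed by 2-fold, and those that did were genes of activation, desaturation, elongation and the ketone body dehydrogenase Bdh2. None of the 19 genes of the shuttle, beta-oxidation and electron transfer passed 2-fold in any of the 3 differences with loess. With median centring Acadvl, Hadh, Eci2, Etfa and Etfb were lower by 2-fold in iTreg than in Th2 culture (-1.18 to -1.45), and Hadh and Eci1 were lower in iTreg than in Th9 (-1.09 and -1.22). In Th9 against Th2 culture 2 of 38 measured members (5.26%) were higher, against 1.28% of all genes, and 0 were lower, against 1.38%. In iTreg against Th2 culture 3 (7.89%) were higher, against 6.86% of all genes, and 2 (5.26%) were lower, against 6.69%. In iTreg against Th9 culture 4 (10.5%) were higher, against 6.81%, and 3 (7.89%) were lower, against 6.29%. The members' shares in the iTreg comparisons thus lay near those of all genes. The error of each difference below combines the errors of its 2 arrays.

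Acsbg1 was 4.28-fold higher in Th9 than in Th2 culture (log2 2.1 ± 0.34), 16.7-fold higher in iTreg than in Th2 (4.06 ± 0.47) and 3.90-fold higher in iTreg than in Th9 (1.96 ± 0.49). Bdh2 kept the same order, at 2.05-fold, 9.14-fold and 4.46-fold (1.03 ± 0.72, 3.19 ± 0.86 and 2.16 ± 0.92). The gap between Th9 and Th2 in Bdh2 is close to its error, and it fell short of 2-fold when the Cy5 channels were compared directly (0.82). The order of levels in these genes is that of TGF-β1 in the medium, none in Th2, 2 ng/ml in Th9 and 5 ng/ml in iTreg culture. It is equally the reverse order of IL-4, 5 ng/ml in Th2, 1 ng/ml in Th9 and none, with anti-IL-4, in iTreg culture. IL-2 and anti-IFN-γ differ as well, and the parts of these agents cannot be told apart.

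Acss1 was 2.79-fold higher in iTreg than in Th2 culture and 3.25-fold higher in iTreg than in Th9 (log2 1.48 ± 0.37 and 1.70 ± 0.39), so that the culture nearest its naive level was iTreg. With median centring the difference from Th2 was 0.84. Acsl4 was 2.01-fold higher in iTreg than in Th9 culture (1.01 ± 0.31), at the size limit, and 0.56 with median centring. Acsl1 was lower in iTreg than in Th9 culture (-1.18 ± 0.31) and stood at -0.94 ± 0.31 against Th2. Against Th2 it passed 2-fold in 6 of 9 alternatives, such as the direct comparison of Cy5 channels (-1.02) and median centring (-1.48).

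A desaturase and an elongase were lower in iTreg culture. Scd2 was lower in iTreg culture than in Th2 (-1.32 ± 0.65) and than in Th9 (-1.12 ± 0.63, and -0.96 by the direct comparison). Elovl6 was lower in iTreg culture than in Th2 (-1.28 ± 0.35) and than in Th9 (-1.08 ± 0.34). For Scd1 only the culture channels were above background on every array. There the log2 difference was 1.75 for Th9 over Th2, -0.44 for iTreg over Th2 and -2.19 for iTreg over Th9. Its naive level was also highest on the Th9 array (7.21, against 6.67 on the Th2 and 6.44 on the iTreg array). Differences of the ratios over naive, which use naive spots at background, were smaller (1.21 ± 0.81, -0.20 ± 0.82 and -1.42 ± 0.81). The plot of differences between cultures sets these members beside the oxidation genes.

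**Figure D3:**
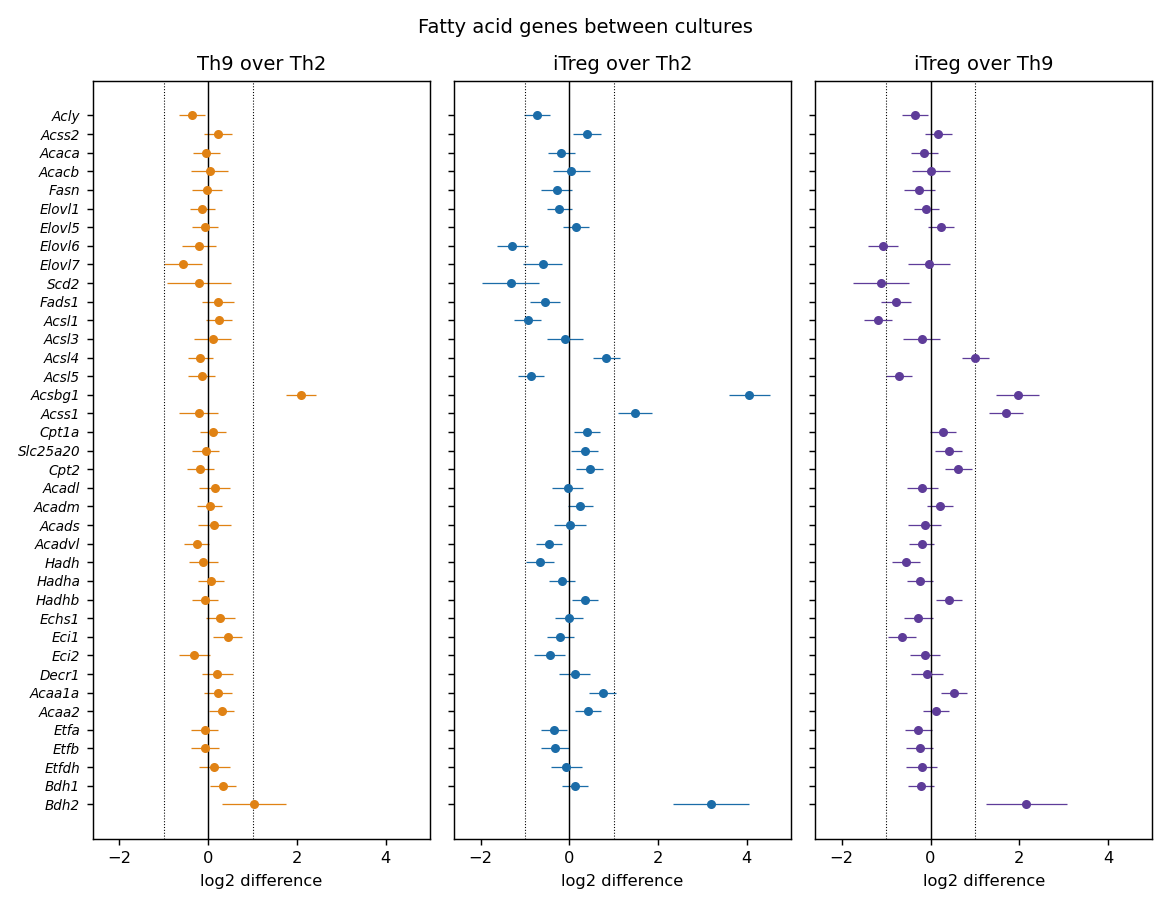
Log2 differences between cultures (Th9 over Th2, iTreg over Th2 and iTreg over Th9) of the measured members, 1 array a culture, with bars for the combined error of both arrays and dotted lines at 2-fold. Acsbg1 reaches 4.06 and Bdh2 3.19 for iTreg over Th2, Scd2 and Elovl6 lie below -1 in both iTreg differences, and with loess, as plotted, the oxidation genes stay within the limits.

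The wider lipid pathway was read from 144 further genes in 10 lists, 141 of them with a probe. In Th2 culture 24 of 103 measured genes rose and 10 fell (median 0.22), in Th9 20 of 101 rose and 10 fell (0.18), and in iTreg 16 of 103 rose and 4 fell (0.15). Of all measured genes 14.8% rose and 14.5% fell in Th2, 15.5% and 15.6% in Th9, and 10.2% and 8.15% in iTreg cultures. The counts of single lists below are to be read beside these shares. The named genes below are the 2 highest and 2 lowest of a list by mean ratio, or some of them, with values in the order Th2, Th9, iTreg.

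Among 22 regulators, 6 of 18 measured rose and 5 fell in Th2, 5 of 17 rose and 3 fell in Th9, and 3 of 18 rose and 1 fell in iTreg cultures. Insig1, the sterol-sensitive anchor of the SREBP pathway, stood at 2.06, 2.19 and 1.61, and Scap, the SREBP escort protein, at -1.12, -1.27 and -1.0. Pparg, a nuclear receptor of lipid storage, stood at 3.34 in Th2, 1.31 in Th9 and 0.55 in iTreg cultures, and Prkaa1, a catalytic subunit of AMP-activated kinase, at -1.86, -1.74 and -0.84. In the supply of citrate and NADPH 1 of 7 measured genes rose in each culture, the mitochondrial citrate carrier Slc25a1 (2.89, 2.97 and 2.21). Mlycd, the malonyl-CoA decarboxylase, stood at -0.84, -0.95 and -0.65.

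Triglyceride storage and lipolysis had the most genes past 2-fold of these lists in Th2 culture, where 10 of 19 rose and 2 fell (median 1.23). In Th9 7 of 18 rose and 2 fell (0.09), and in iTreg 3 of 18 rose and 2 fell (0.39). Dgat2, which makes triglyceride from diglyceride, stood at 2.23, 3.22 and 2.48. Hilpda, a lipid droplet protein that restrains lipolysis, stood at 3.21, 3.03 and 0.76. The lysosomal lipase Lipa stood at -1.89, -1.91 and -1.26, and G0s2, an inhibitor of the main triglyceride lipase, at -1.09, -1.15 and -1.07. Among 7 measured genes of uptake and binding, Fabp5, a fatty acid binding protein, stood at 3.00, 3.71 and 2.16, while the transporters Slc27a4 and Slc27a5 lay between -0.76 and 0.02.

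For other routes of oxidation, among 14 measured peroxisomal genes 2 rose and 1 fell in each culture, with Pecr, a trans-enoyl-CoA reductase, at 1.88, 1.73 and 1.37, Hacl1, a lyase of branched chains, at 1.49, 1.57 and 1.55, and Scp2, a thiolase and sterol carrier, at -1.19, -1.66 and -1.14. Among 11 further mitochondrial oxidation genes none rose and 1 fell in Th2, none rose and 2 fell in Th9, and 1 rose in iTreg cultures. Mcee, the methylmalonyl-CoA epimerase, was the one that rose (0.69, 0.85 and 1.09). In mitochondrial fatty acid synthesis Cbr4, a subunit of its ketoacyl reductase, stood at 1.34, 1.22 and 1.78. Among 7 measured elongation-cycle and desaturase genes Hacd1, a dehydratase of elongation, stood at 3.19, 2.79 and 0.87, and Degs1, the ceramide-forming desaturase, at -1.54, -1.36 and -0.38. Among the thioesterases, which release free fatty acids from coenzyme A, Acot7 stood at 1.86, 2.41 and 1.64 and Acot9 at 0.54, 1.45 and 2.04. Among 6 measured ketone body genes the transporter Slc16a6 stood at 0.42, 0.96 and 1.17.

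**Figure D4:**
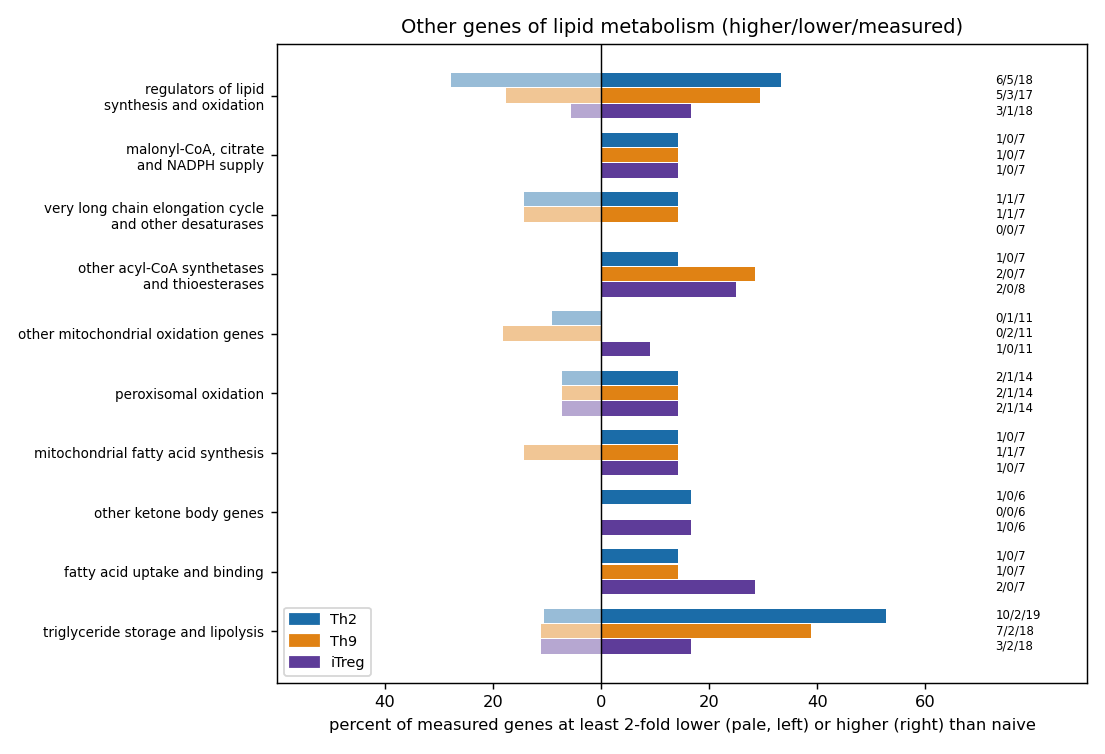
Share of the measured genes of 10 further lipid lists at least 2-fold higher (right) or lower (pale, left) than naive in Th2, Th9 and iTreg cultures, in percent, with the counts higher, lower and measured at the right edge. The longest bar is triglyceride storage and lipolysis in Th2 culture (10 of 19 higher, against 14.8% of all measured genes).

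How the arrays were scaled matters for bright members. Loess removes a trend of ratio with brightness, and median centring leaves it in. Replacing loess by median centring moved the measured members' log2 ratios by 0.10 to 1.09 in Th2, by -0.03 to 0.88 in Th9 and by -0.29 to 0.20 in iTreg cultures. Acadvl then stood at 1.43 in Th2, Etfb at 1.81 and Acly at 1.25, and 20 members (52.6%) rather than 11 rose there, against 25.4% of all genes in that setting. The median of all genes then stood at 0.33 in Th2, 0.16 in Th9 and -0.18 in iTreg cultures, and of all genes past 2-fold 77.4%, 65.2% and 40.6% were higher, against 50.5%, 49.8% and 55.7% with loess. Relative to that shifted median 15 members rose and 3 fell in Th2, and 16 rose and 2 fell in Th9 cultures. In iTreg culture 10 rose and 1 fell. The shares of all genes in that setting were 18.3% and 12.6% in Th2, 18.1% and 14.4% in Th9, and 10.8% and 8.02% in iTreg. No member past 2-fold changed sign in any alternative.

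**Figure D5:**
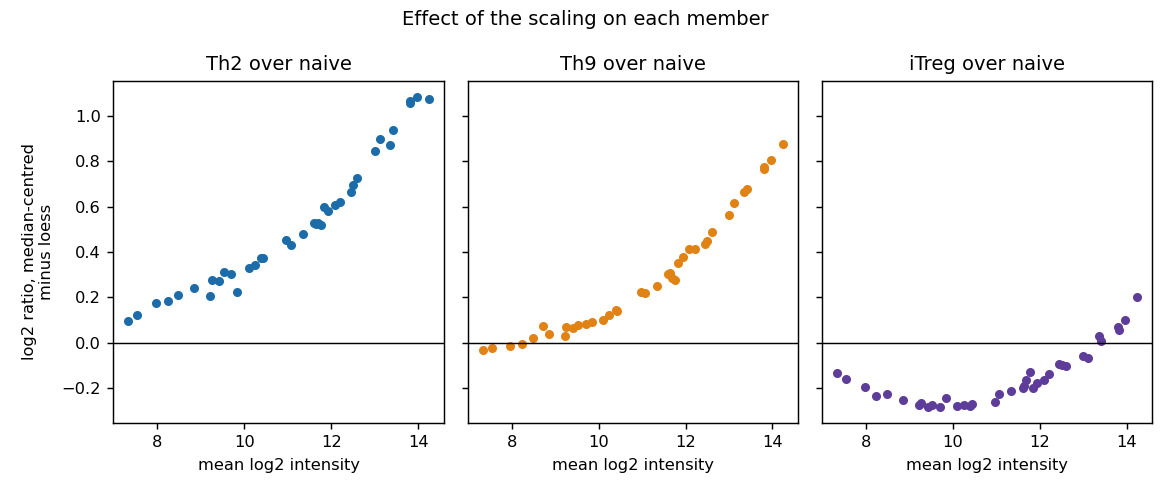
Change in each measured member's log2 ratio over naive when median centring replaces loess, against its mean log2 intensity, on the Th2, Th9 and iTreg arrays. The change reaches 1.09 in Th2 (Elovl1) and 0.88 in Th9 (Acaa1a), and stays between -0.29 and 0.20 in iTreg.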

How the data were processed

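Per the file headers, the deposited scanner files hold spot and background intensity in 2 channels quantified by Agilent Feature Extraction 11.0.1.1 (9.3.2.1 according to the submitters' processing notes). Per the file headers they also hold processed intensity, a log10 ratio and its error on the log10 scale, and an unused p-value. The deposited series values were found to be log2 ratios of the processed signals plus a constant per array. Wherever they serve as an alternative, they were first centred here on each array's median over all probes. That centring left the median of all measured genes at -0.16 in Th2, -0.29 in Th9 and -0.29 in iTreg cultures.

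Median intensities were background-corrected (normexp, offset 50) and loess-normalised within each array (limma 3.58.1 and R 4.3.3, with the data.table package, 1.17.8), then summarised in Python 3.11.15 (pandas 2.3.3, numpy 2.4.6, scipy 1.17.1, matplotlib 3.10.9). Medians replaced the mean intensities first planned, which these files lack. Levels by channel were scaled between arrays by Aquantile. Control and outlier spots had no weight in loess. Of 39429 probes 26049 matched a RefSeq gene of GRCm38.p6. The 2-fold rule was tested on simulated data. Where 1 channel was at background, a bound was taken from the other. With 1 array per culture the number of arrays limits precision, no p-value is given, and dyes were not swapped, so dye effects cannot be told apart from differences over naive. All arrays sat on 1 slide, so array position and culture cannot be told apart. Members, lists and naming rules (members past 2-fold in a comparison by array; the 2 highest and 2 lowest of other lists) were chosen with earlier results of these data known; values of other members were added after they were seen. A few genes of the marker and pathway lists are not reported here by name.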

Additional observations from a re-analysis of the deposited data

How the results depend on the processing

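Of 58 values past 2-fold, 46 stayed past it in every alternative and 12 did not in some; none of the 58 changed sign. Of 171 below it, 36 passed it in some and 62 changed sign in some, such as Elovl1 in Th2 (-0.04, and 1.05 with median centring). The share of all genes in the same setting follows each count of members that moved. With median centring in place of loess, 20 (not 11) rose (25.4%) and 1 (not 4) fell (7.4%) in Th2, and 2 (not 1) fell in iTreg cultures (12%). By the authors' series values, median-centred here, 5 (not 2) fell in Th9 (25.9%) and 5 in iTreg (17.7%). In iTreg 3 fell by the scanner software's processed signals (11.5%) and 2 by plain background subtraction (8.83%). At 1.5-fold 17 rose in Th2 (24%), 5 fell in Th9 (27.3%) and 6 fell in iTreg (19%).

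Between cultures, Th9 over Th2 gave 1 higher (not 2) with median centring (0.976%) and with the series values (1.37%), and the series values gave 1 lower (not 0; 2.88%). For iTreg over Th2 the count lower (2 with loess at 2-fold) was 11 with median centring (26.8%), 4 with processed signals (8.59%), 4 with subtraction (8.04%), 5 with series values (11.6%) and 7 at 1.5-fold (16.2%), and the count higher was 5 (not 3) at 1.5-fold (16.6%). For iTreg over Th9 the count lower (3 with loess at 2-fold) was 8 with median centring (16.8%) and 6 at 1.5-fold (15.3%). The members' shares lower in these iTreg comparisons, such as 28.9% with median centring against Th2, lay near those of all genes. The cause of these shifts was not tested, apart from the threshold's own effect. Values past 2-fold that did not hold in some alternative and are not named above with that value were Fads1 in Th2 (0.97 by median centring relative to all genes), Hadh in Th9 (0.97) and Eci2 in iTreg (0.98), both by the series values. Both the mean of the naive channels and median centring relative to all genes were chosen as alternatives after seeing the data.

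No array was left out, because each culture had 1. No paired analysis was possible because each culture had only replicate 1. Signal over background limits Me1, Fads2 and, in iTreg culture, Scd1 to bounds on the arrays named. For Scd1 in Th2 culture the bound equals the ratio itself, so the ratio is given.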
